A study of Mus musculus with 8 samples.

Results

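The 45 genes described here encode proteins that load and start the replicative helicase and that build the replication fork. They were chosen by name from the 15653 genes of the deposited matrix, all 45 were in it, and they fall into 9 roles. They were measured by 5′ single-cell RNA sequencing in CD4-negative, CD8-negative (DN) thymocytes. The 4 groups were KI DN4, WT DN4, KI DN3 and WT DN3 cells. KI mice carry a GSK3B Ser389Ala knock-in, in which a serine of the kinase GSK3β is replaced by alanine, and WT mice were C57BL/6J. DN4 cells were sorted as CD44- CD25- and DN3 cells as CD44- CD25+. In all groups a magnetic column first removed cells bearing MHC class II, CD11b, CD4, CD8 or the immunoglobulin kappa chain. Each group had 1 expression library and 1 T cell receptor library. The age, sex and number of mice were not given in the sources used here, and neither was whether DN3 and DN4 cells came from the same mice.

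DNA replication starts at origins, where the origin recognition complex, CDC6 and CDT1 load the MCM helicase as a ring in G1. DBF4-dependent kinase then lets CDC45 and the GINS proteins join the ring, and the moving helicase opens DNA for polymerases α, δ and ε. PCNA is the sliding clamp that holds polymerases on DNA, and replication factor C loads it. E2F transcription factors are the textbook regulators of many of these genes at the entry to S phase. In the thymus, DN3 cells that have made a productive T cell receptor β chain (TRB) enter rapid division as they pass to DN4.

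Because E2F control is the best known feature of these genes, their promoters were read for E2F letters. RefSeq sequence (GRCm38.p6) was at hand for 35 of the 45, and only the first listed start of each gene was read. Within the 250 bases before the start, the letters TTCCCGC, or the variant TTCGCGC, or the variant TTGCCGC, or the variant TTGGCGC, read on both strands with overlaps counted, were present in 14 of the 35 (40.0%). The share was 7.97% of all 27025 promoters and 16.1% of 5806 promoters of other expressed genes. With the first 50 bases after the start added, 22 of the 35 (62.9%) held a match, against 9.69% of all promoters. CCAAT was present in 21 of the 35 (60.0%) and in 34.5% of all. TTTGAA or its variant TTCGAA, the CHR letters known from mitotic genes, were present in 6 (17.1%) and in 17.4% of all. A match is a description of letters and not evidence of binding.

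The following 4 are shown because Mcm6, Mcm5 and Pola1 held the most E2F letters and because Cdc6 was among the genes that differed most between cell cycle phases. Each runs 5′ to 3′ on the strand of its gene over the 250 bases before the start, with E2F letters in capitals. They lie at chr1:128359706-128359955 on the minus strand for Mcm6, chr8:75109259-75109508 on the plus strand for Mcm5, chrX:93632156-93632405 on the minus strand for Pola1 and chr11:98907901-98908150 on the plus strand for Cdc6.
Mcm6: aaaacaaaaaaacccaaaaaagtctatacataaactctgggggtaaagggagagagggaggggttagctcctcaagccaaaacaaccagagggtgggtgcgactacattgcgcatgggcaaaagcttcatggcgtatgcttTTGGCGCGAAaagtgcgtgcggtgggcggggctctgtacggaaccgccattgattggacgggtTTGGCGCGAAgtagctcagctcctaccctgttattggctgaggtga
Mcm5: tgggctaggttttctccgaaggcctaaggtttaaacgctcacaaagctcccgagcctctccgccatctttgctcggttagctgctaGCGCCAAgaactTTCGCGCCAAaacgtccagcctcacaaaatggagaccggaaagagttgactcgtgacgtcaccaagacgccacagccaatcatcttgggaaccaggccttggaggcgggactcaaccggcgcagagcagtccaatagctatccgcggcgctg
Pola1: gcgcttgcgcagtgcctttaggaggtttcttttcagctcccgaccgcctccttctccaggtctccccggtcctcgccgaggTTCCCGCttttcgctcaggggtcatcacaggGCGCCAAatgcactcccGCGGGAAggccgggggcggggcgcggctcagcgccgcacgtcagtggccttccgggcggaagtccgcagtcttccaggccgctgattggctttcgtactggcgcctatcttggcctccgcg
Cdc6: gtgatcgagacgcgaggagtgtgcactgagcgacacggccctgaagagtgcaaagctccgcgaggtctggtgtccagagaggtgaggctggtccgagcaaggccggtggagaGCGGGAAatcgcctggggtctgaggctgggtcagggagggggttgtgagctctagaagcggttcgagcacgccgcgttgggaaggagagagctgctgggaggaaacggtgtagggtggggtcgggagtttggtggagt
Mcm6 held 4 matches, the nearest of which began 43 bases before the start. Mcm5 and Pola1 held 3 each, and Cdc6 held 1. The window held no such letters in Pcna, Clspn, Timeless or Lig1.

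The libraries held 2577 KI DN4, 1477 WT DN4, 3298 KI DN3 and 2885 WT DN3 cells, and 30402236, 16411164, 25525613 and 22652454 unique molecular identifiers (UMIs) in that order. Levels are UMIs of a gene summed over cells and scaled to the library total (CPM), and intervals are exact 95% Poisson intervals that cover counting error only. With 1 library per group no difference between groups could be tested, and in such sums fewer cells of a kind and less RNA per cell cannot be told apart. Between 14 and 36 cells of a library shared a barcode with another library. T cell markers summed to between 4745 and 9475 CPM, and Il2ra, which encodes CD25, was at 3.75 CPM in KI DN4 and 3.84 in WT DN4, against 425 in KI DN3 and 478 in WT DN3. Markers of other cells were summed by list, in CPM of KI DN4, WT DN4, KI DN3 and WT DN3. The 2 B cell markers of the matrix summed to 21.6, 21.8, 61.5 and 68.9, nearly all of it Cd79b, with Cd79a at or below 0.27. The 5 myeloid and dendritic markers summed to 3.26, 4.08, 17.3 and 16.4, mostly Lyz2 in DN3, with Csf1r and Itgam at or below 0.25. The 3 stromal markers summed to 55.0, 56.7, 217.5 and 181.9, nearly all of it Epcam and Pecam1. Markers of gamma delta T cells summed to 288.6, 385.5, 253.7 and 286.6, and those of NK, innate lymphoid and NKT cells to 162.5, 252.0, 103.1 and 136.5. The part of these cells in the results was not tested. The deposited clusters 0 and 1, which held 74.9% of KI DN3 and 78.2% of WT DN3 cells, separate by genotype and were used as a sum. Clusters 6, 3 and 4 held the other main groups of DN3 cells, and clusters 2, 3, 4, 5 and 7 those of DN4.

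Together the 45 genes took 0.560% of all UMIs in KI DN4, 0.491% in WT DN4, 0.401% in KI DN3 and 0.345% in WT DN3. The order of the libraries was the order of their cells called in S phase, which made up 35.7% of KI DN4, 27.7% of WT DN4, 18.6% of KI DN3 and 15.8% of WT DN3 cells. Within S phase the genes took 0.743%, 0.737%, 0.741% and 0.688% of UMIs in the same order of libraries. In cells called G2M they took 0.511%, 0.466%, 0.473% and 0.420%, and in G1 cells between 0.109% and 0.150%. How the deposited phase calls were made is not given in the sources used here, and 19 of the 45 genes are on the standard 43-gene list used to score S phase.

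Among DN3 cells the genes were highest in clusters 4, 3 and 6 and lowest in clusters 0 and 1. They took 0.683% of UMIs in cluster 4, 0.643% in cluster 3, 0.592% in cluster 6 and 0.147% in clusters 0 and 1 of KI DN3, and 0.658%, 0.577%, 0.547% and 0.153% in WT DN3. The clusters were built from the same expression values, so these differences are a description. A gene is called higher or lower where its log2 ratio of CPM was at least 0.32 away from 0, among genes whose mean of both sides was at least 10 CPM (measured genes). Called higher in cluster 4 than in clusters 0 and 1 were 44 of 44 measured genes in KI DN3, with a background of 28.7% of all genes, and 45 of 45 in WT DN3, with a background of 28.5%. The median log2 ratio was 2.42 in KI DN3 and 2.38 in WT DN3. In cluster 3 it was 2.27 and 1.84, with 43 of 44 genes higher in KI DN3 (background 27.2%) and 42 of 43 in WT DN3 (background 25.7%). In cluster 6 it was 1.96 and 1.88, with 43 of 43 genes higher in KI DN3 (background 25.2%) and 41 of 43 in WT DN3 (background 24.6%). Genes nearly absent from clusters 0 and 1, such as Cdc6, Mcm10 and Clspn, were measured only through the other cluster. The filter fixed the calls of such genes in advance, so these counts are no support for a difference. The backgrounds carry the same filter.

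Most genes were highest in cluster 4. Among clusters 4, 3 and 6, cluster 4 had the highest level of 27 genes in both DN3 libraries, cluster 3 that of 7 genes and cluster 6 that of 1 gene, and for 10 genes the libraries differed. The 7 highest in cluster 3 were the helicase genes Mcm3, Mcm4 and Mcm7, the origin recognition gene Orc1, the GINS gene Gins2, the polymerase ε subunit gene Pole2 and the clamp loader gene Rfc3. Mcm6 was the 1 gene highest in cluster 6. In KI DN3 it had 566 CPM in cluster 4, 633 in cluster 3, 737 in cluster 6 and 177 in clusters 0 and 1. In WT DN3 it had 563, 604, 665 and 180 CPM in the same clusters.

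Clspn, which encodes claspin, an adaptor of the fork checkpoint, had the opposite order. It was at 103 CPM in cluster 4, 56.6 in cluster 3, 29.9 in cluster 6 and 2.55 in clusters 0 and 1 of KI DN3. In WT DN3 it was at 70.8, 35.6, 18.5 and 2.65 CPM. The log2 ratio of cluster 4 over cluster 6 was 1.79 in KI DN3 and 1.93 in WT DN3 for Clspn, against -0.38 and -0.24 for Mcm6.

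Cdc6, a loader of the helicase, was nearly absent from clusters 0 and 1, with 1.04 CPM in KI DN3 and 1.09 in WT DN3, and its log2 ratio of cluster 4 over them was 6.10 in KI DN3 and 6.28 in WT DN3. Mcm10, an origin firing factor, was at 0.16 and 0.23 CPM there, with log2 ratios of 7.58 (5.71 to 10.63) in KI DN3 and 6.74 (5.16 to 9.04) in WT DN3. The Mcm10 ratio of KI DN3 rests on 2 UMIs in clusters 0 and 1. Prim2, the large subunit of primase, departed from the rest. It had 99.3 CPM in cluster 4, 49.8 in cluster 3, 81.4 in cluster 6 and 64.0 in clusters 0 and 1 of KI DN3, and 96.3, 51.8, 73.0 and 64.0 CPM in WT DN3. Its log2 ratio of cluster 3 over clusters 0 and 1 was -0.36 (-0.65 to -0.09) in KI DN3 and -0.31 (-0.63 to 0.00) in WT DN3, and it was the 1 gene called lower there in KI DN3 (background 46.2%).

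**Figure D1:**
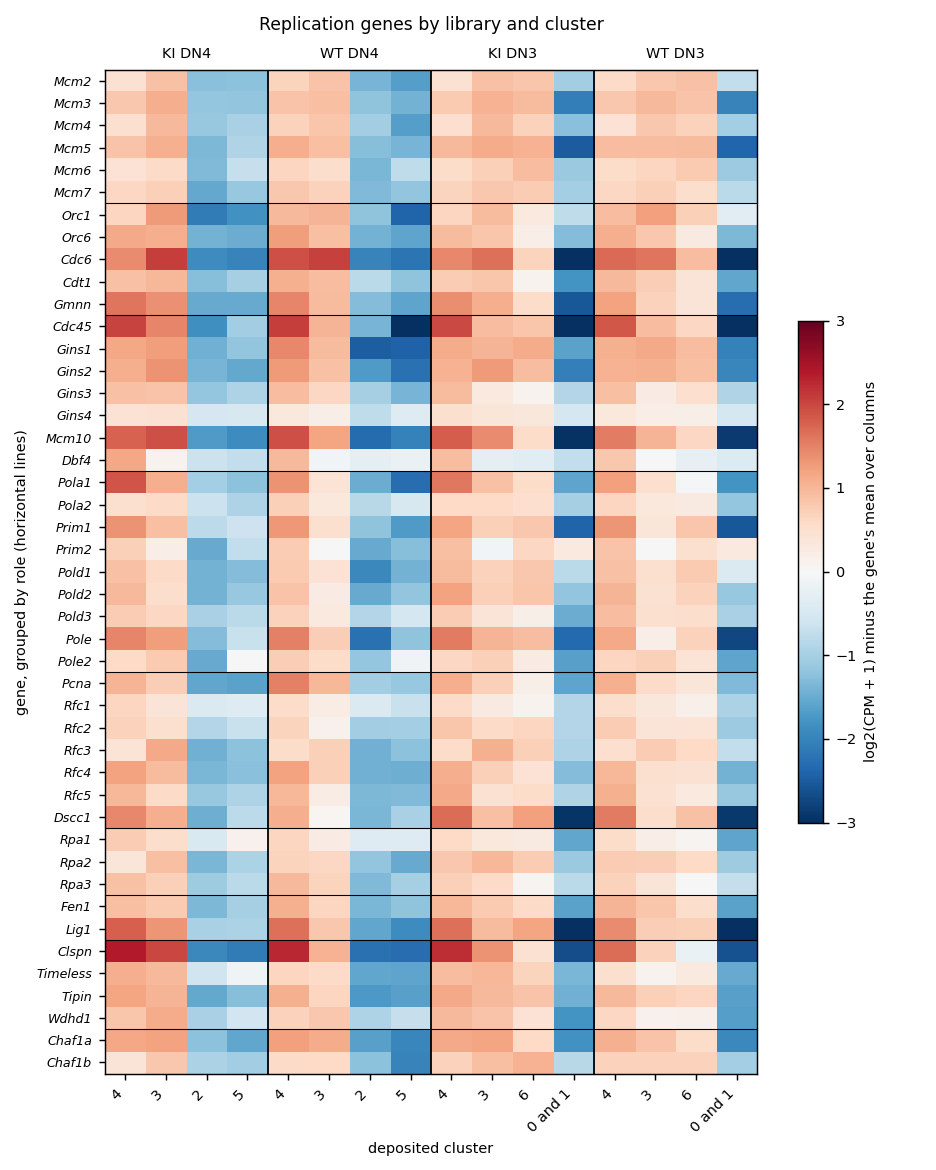
Level of the 45 genes, grouped by role down the page, in the clusters of each library across it, as log2(CPM + 1) minus the mean of the gene. Clusters 4, 3 and 6 are above the mean of nearly every gene and clusters 0 and 1, 2 and 5 below it, and Prim2 is above its mean in clusters 0 and 1.

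Clusters 4 and 3 occur at both stages and could be set against each other in 4 libraries. The ratio of cluster 4 over cluster 3 was above 1 in all 4 for 24 genes, in 19 of them with every interval above 1, and below 1 in all 4 for 5 genes. The 5 were Mcm2, Mcm3, Mcm4, Orc1 and Rfc3, and only for Mcm2 and Mcm4 were all 4 intervals below 1. The same counts were not made over all genes, so they describe the 45 alone. Called higher in cluster 4 were 10 of 45 genes in KI DN4, 25 in WT DN4, 16 in KI DN3 and 23 in WT DN3, with backgrounds of 12.5%, 13.9%, 16.6% and 20.7%. The medians were 0.11, 0.40, 0.16 and 0.34 in that order, and those of all genes 0.01, -0.01, 0.03 and 0.05. Those of 21 mitotic genes were 2.16, 2.20, 2.71 and 2.17. In cluster 4 the cells called G2M made up 58.5% in KI DN4, 37.5% in WT DN4, 44.1% in KI DN3 and 39.0% in WT DN3. Cluster 7, with 75 KI DN4 cells, had 12 of the 45 genes called lower than cluster 4 (background 24.5%) and 2 higher (background 36.3%). Dbf4, which encodes the activating subunit of the origin kinase, was at 129 CPM in cluster 7 and 88.2 in cluster 4, and Gins2 at 60.4 and 100.3.

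Cells called S and G2M were compared over clusters 3 and 4 pooled, so differences between the 2 clusters enter these ratios. In KI DN4, for example, 638 S cells were in cluster 3 and 163 in cluster 4, against 107 and 230 G2M cells. Called higher in S were 28 of 45 genes in KI DN4, 34 in WT DN4, 39 in KI DN3 and 36 in WT DN3, with backgrounds of 7.77%, 12.0%, 11.2% and 11.6%. In cluster 4 alone the counts were 37, 37, 41 and 42, with backgrounds of 11.4%, 16.5%, 14.1% and 16.2%. The values that follow are those of the pooled cells. The medians of the 26 genes that are not on the standard S phase list were 0.39, 0.50, 0.57 and 0.61, and those of the 19 on it 0.58, 0.58, 0.96 and 0.80. Of the 45, 39 (86.7%) were higher in S in all 4 libraries, against 1404 of the 6368 genes measured in all 4. The phase calls may use some of these genes, so the ratios are a description.

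Cdc6 had the largest difference in all 4 libraries. It was at 124 CPM in S and 38.7 in G2M cells of KI DN4, 135 and 44.2 in WT DN4, 105 and 28.8 in KI DN3, and 110 and 33.2 in WT DN3. The log2 ratios of S over G2M were 1.68, 1.61, 1.86 and 1.73. Chaf1b, a subunit of the histone chaperone CAF-1, averaged 1.36 over the libraries, Rfc3 1.15 and Gins2 1.05. Of the helicase genes, Mcm2 to Mcm6 averaged 0.91 to 1.03, and Mcm7 averaged 0.60.

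Dbf4 was the 1 gene lower in S in all 4 libraries. It was at 44.3 CPM in S and 92.8 in G2M cells of KI DN4, 44.3 and 96.4 in WT DN4, 44.4 and 91.8 in KI DN3, and 42.6 and 94.3 in WT DN3. Its log2 ratios were -1.07, -1.12, -1.05 and -1.14, so the S and G2M levels stood apart by about the same factor in every library. The 5 genes with mixed signs in the pooled cells were Rpa3, Pold1, Timeless, Pola1 and Dscc1. In cluster 4 alone, Pold1, Timeless, Pola1 and Dscc1 were higher in S in every library, though in WT DN4 their intervals held 1.

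**Figure D2:**
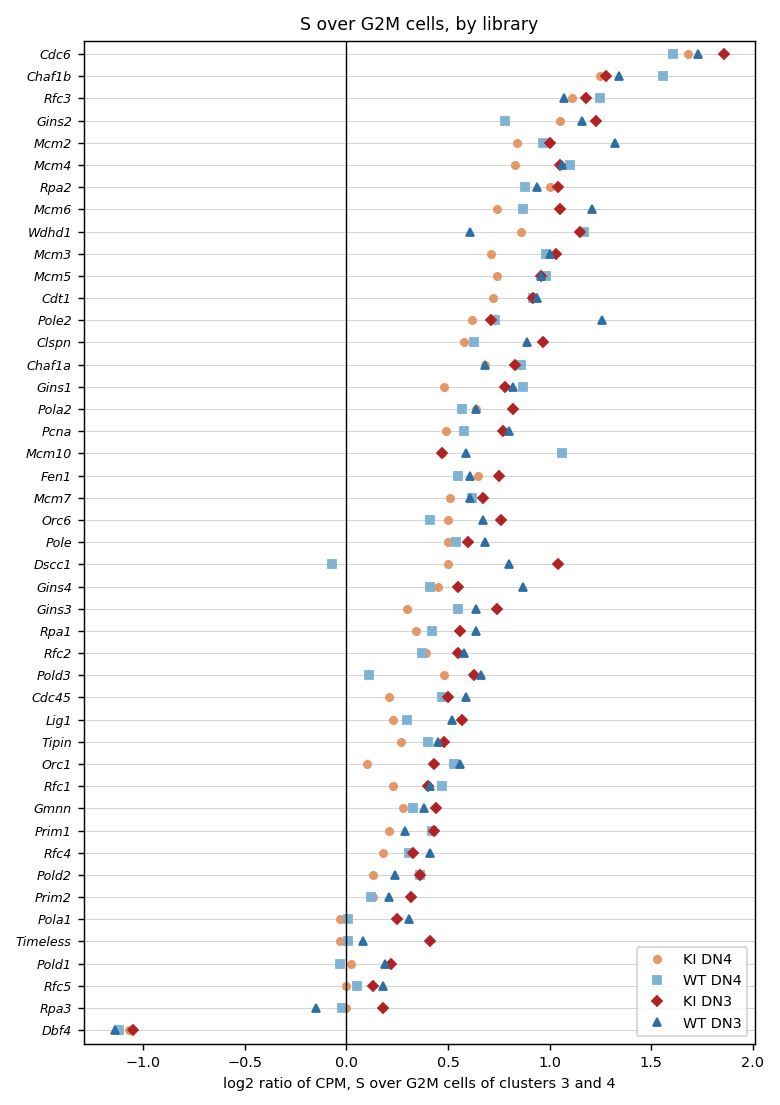
Log2 ratio of CPM in S over G2M cells of clusters 3 and 4 for the 45 genes, ordered by their mean, with 1 point per library. Dbf4 lies near -1.1 in all 4 libraries and Cdc6 between 1.61 and 1.86, while most other genes lie between 0 and 1.3.

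KI against WT was compared first over whole libraries. In DN4, 11 of 45 genes were called higher in KI and 0 lower, with backgrounds of 4.12% higher and 17.0% lower. In DN3, 12 of 44 were higher and 0 lower, with backgrounds of 5.06% and 8.45%. The 12 include Mcm10, which was measured in DN3 only through KI. The median log2 ratio of the genes was 0.21 in DN4 (all genes -0.06) and 0.23 in DN3 (all genes 0.00). Ratios were above 1 for 44 of 45 genes in DN4 and for 42 of 44 in DN3, with whole intervals above 1 for 38 and 35. Over all measured genes, 39.6% were above 1 in DN4 and 49.1% in DN3, with whole intervals above 1 for 20.8% and 24.4%. Scaling by trimmed means in place of library totals gave 25 of 45 higher in DN4 (background 10.7%). It moved the median of all genes to 0.05 (log2) and that of the 45 to 0.33.

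The genes of fork protection were highest relative to WT. All 4 of this role were called in both stages, with medians of 0.47 in DN4 and 0.58 in DN3, whereas 0 of 6 helicase genes were called, with medians of 0.14 and 0.15. Mcm6, for example, had 466 CPM in KI DN4 and 448 in WT DN4, and 397 in KI DN3 and 356 in WT DN3. Clspn had 79.1 CPM in KI DN4 and 55.2 in WT DN4, and 40.0 in KI DN3 and 22.1 in WT DN3. The log2 ratio was 0.52 (0.41 to 0.63) in DN4 and 0.86 (0.70 to 1.01) in DN3. Timeless, whose protein pairs with that of Tipin to steady the fork, had 67.0 CPM in KI DN4 and 43.6 in WT DN4, and 42.7 in KI DN3 and 27.9 in WT DN3, with log2 ratios of 0.62 (0.50 to 0.74) and 0.62 (0.47 to 0.76). Tipin had 276 and 216 CPM in KI and WT DN4, and 194 and 148 in KI and WT DN3, with ratios of 0.36 (0.30 to 0.41) and 0.39 (0.33 to 0.46). Wdhd1, which links the helicase to polymerase α, had 31.8 and 23.9 CPM in KI and WT DN4, and 19.2 and 13.2 in KI and WT DN3, with ratios of 0.41 (0.24 to 0.59) in DN4 and 0.54 (0.33 to 0.75) in DN3.

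The catalytic subunits of polymerases α and ε were also higher in KI. Pola1 had 56.0 CPM in KI DN4 and 36.3 in WT DN4, and 34.1 in KI DN3 and 22.2 in WT DN3. Its log2 ratio was 0.63 (0.49 to 0.76) in DN4 and 0.62 (0.46 to 0.78) in DN3. Pole had 30.2 and 24.1 CPM in KI and WT DN4, and 19.2 and 11.7 in KI and WT DN3, at 0.33 (0.16 to 0.50) and 0.72 (0.50 to 0.94). Other subunits of these enzymes had ratios closer to 0 on the log2 scale, with Pola2 at 0.08 in DN4 and 0.25 in DN3, Pole2 at 0.11 and 0.14, and Prim2 at 0.11 and 0.07.

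Further calls in both stages were in other roles. Dscc1, a subunit of a clamp loader that acts on cohesion, had 28.0 and 18.7 CPM in KI and WT DN4, and 20.7 and 15.0 in KI and WT DN3, with log2 ratios of 0.59 (0.40 to 0.78) and 0.46 (0.26 to 0.67). Lig1, the ligase that seals Okazaki fragments, had 201 and 153 CPM in KI and WT DN4, and 116 and 80.8 in KI and WT DN3, at 0.39 (0.33 to 0.46) and 0.52 (0.44 to 0.61). These were above 1 in both stages, with no interval reaching it. Gmnn, which encodes geminin, the inhibitor of CDT1, had 204 and 158 CPM in KI and WT DN4, and 111 and 82.6 in KI and WT DN3, at 0.37 (0.30 to 0.43) and 0.43 (0.34 to 0.51). Mcm10 had 25.2 and 18.4 CPM in KI and WT DN4, and 12.5 and 8.56 in KI and WT DN3, at 0.45 (0.26 to 0.65) and 0.55 (0.29 to 0.81). In DN3 Mcm10 was measured only through KI, so that call follows from the filter and is no support for a difference. The counts of calls in DN3 and in both stages include it. Of 44 genes measured in both stages, 10 were called in both, which is 90.9% of the 11 called in DN4 and 83.3% of the 12 in DN3. Over all 6920 genes measured in both stages the shares were 43.5% and 34.1%. Rfc3 was called in DN4 only, and Cdc45 and Chaf1a in DN3 only, and the difference between stages was not tested.

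**Figure D3:**
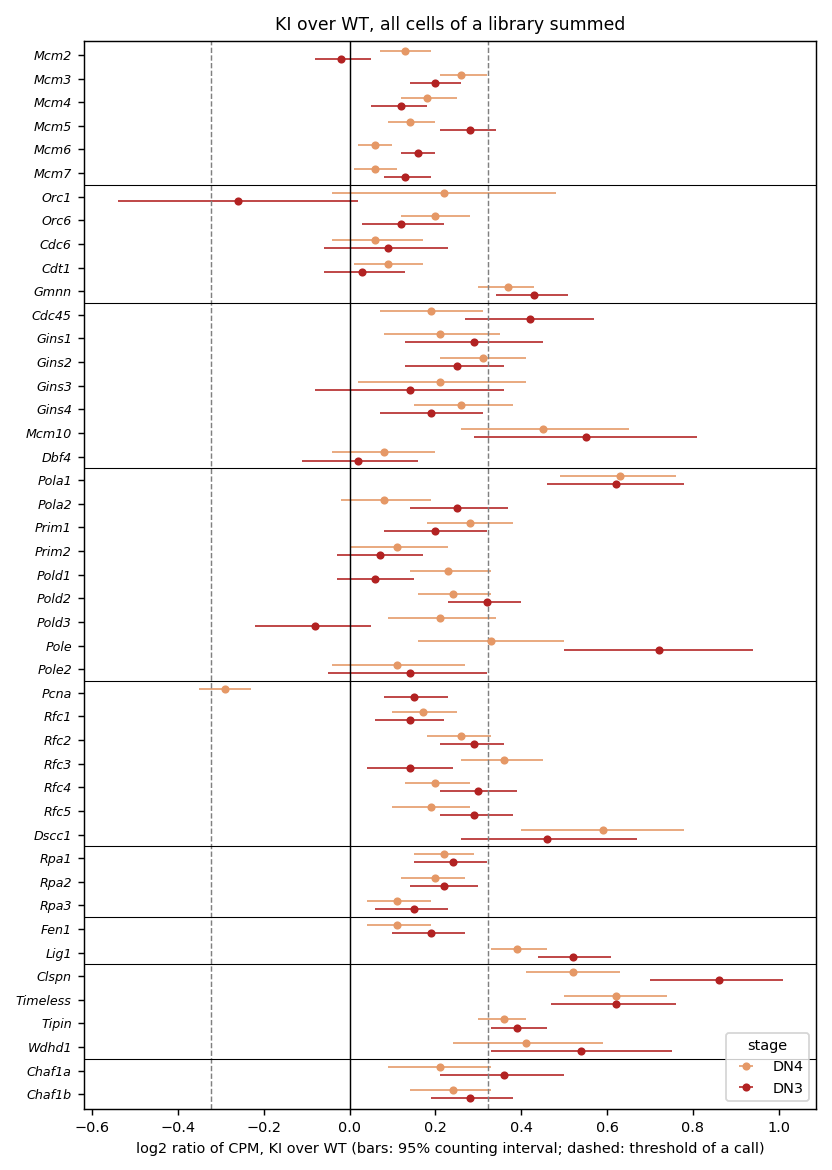
Log2 ratio of CPM in KI over WT for each of the 45 genes in DN4 (upper) and DN3 (lower), with exact 95% Poisson intervals and dashed lines at the threshold of a call. Nearly all points lie to the right of 0, Pola1 and Timeless (0.63 and 0.62) are farthest right in DN4 and Clspn and Pole (0.86 and 0.72) in DN3, and Pcna lies left of 0 in DN4 alone.

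Other genes had ratios close to 1 or of different sign in the stages. Cdt1 was at 125 CPM in KI DN4 and 118 in WT DN4, and at 73.2 in KI DN3 and 71.6 in WT DN3, and Cdc6 at 74.6 and 71.4, and 33.8 and 31.8. Mcm2 was at 212 CPM in KI DN4 and 194 in WT DN4, and at 158 in KI DN3 and 160 in WT DN3, with log2 ratios of 0.13 (0.07 to 0.19) and -0.02 (-0.08 to 0.05). Dbf4 was at 0.08 in DN4 and 0.02 in DN3. Orc1, the largest subunit of the origin recognition complex, had 13.1 CPM in KI DN4, 11.2 in WT DN4, 8.31 in KI DN3 and 9.93 in WT DN3, and its intervals held 1 in both stages. Each of these stayed under the threshold in both stages. Pold3, an accessory subunit of polymerase δ, had 55.5 and 47.9 CPM in KI and WT DN4, and 37.3 and 39.5 in KI and WT DN3, with ratios of 0.21 (0.09 to 0.34) in DN4 and -0.08 (-0.22 to 0.05) in DN3. Pold2, another subunit of it, had 120 and 101 CPM in KI and WT DN4, and 109 and 87.8 in KI and WT DN3. Rpa2, which binds single strands, had 147 and 128 CPM in KI and WT DN4, and 122 and 104 in KI and WT DN3. Chaf1b had 96.2 and 81.6 CPM in KI and WT DN4, and 83.3 and 68.5 in KI and WT DN3. The last 3 genes were higher in KI in both stages by less than the threshold.

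Pcna differed in sign between stages. It had 181 CPM in KI DN4 and 222 in WT DN4, and 131 in KI DN3 and 117 in WT DN3. The log2 ratio was -0.29 (-0.35 to -0.23) in DN4, the only interval of the 45 below 1 there, and 0.15 (0.08 to 0.23) in DN3.

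Other genes of the replication machinery and of mitosis were counted beside these. Of 32 further replication genes, 1 of 31 measured was called higher in KI DN4, with a median of 0.07, and 4 of 30 in KI DN3, with a median of 0.06. That gene in DN4 was Supt16, a histone chaperone of the FACT complex, with 164 CPM in KI and 112 in WT. Of 21 mitotic genes, 14 of 21 were higher in KI DN4 and 18 of 20 in KI DN3, with medians of 0.39 and 0.57. The genotypes differed in their shares of the clusters. In DN4, cluster 4 held 393 of 2577 KI cells (15.3%) and 251 of 1477 WT cells (17.0%), and cluster 3 held 767 (29.8%) and 242 (16.4%). In DN3, cluster 4 held 347 of 3298 KI cells (10.5%) and 213 of 2885 WT cells (7.38%), and cluster 3 held 138 (4.18%) and 96 (3.33%). In DN4, cluster 4 gave 35.3% of the UMIs of the 45 genes in KI and 52.5% in WT, and cluster 3 gave 54.6% and 32.5%. In DN3, cluster 4 gave 48.9% in KI and 40.1% in WT.

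The comparison was therefore repeated within clusters. In DN4 cluster 4, 3 of 45 genes were called higher in KI (background 8.34%) and 3 lower (background 12.0%), with a median of -0.05. The higher genes were Pola1, Dscc1 and Timeless, and the lower ones Orc1, Cdc6 and Pcna. In DN4 cluster 3, 16 were higher (background 6.91%) and 0 lower (background 14.4%), with a median of 0.26. In that cluster 2.87% of KI and 9.92% of WT cells were called G1, and 83.2% and 73.1% S. With phase shares held equal, 11 were higher there (background 6.67%) and 1 lower, with a median of 0.21. In DN3 cluster 4, 5 were higher (background 6.94%) and 0 lower (background 9.21%), with a median of 0.04. The 5 were Pola1, Pole, Clspn, Timeless and Wdhd1. DN3 cluster 3 had 10 higher (background 14.2%) and a median of 0.18, and cluster 6 had 6 higher (background 12.1%), 3 lower (background 12.0%) and a median of 0.11. In clusters 0 and 1, 0 of 30 were higher (background 6.15%) and 3 were lower (background 8.59%), and these were Dbf4, Pold1 and Pold3.

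Some genes had ratios above 1 in each of these cycling clusters. Over the 5 comparisons, in DN4 clusters 4 and 3 and in DN3 clusters 4, 3 and 6, 13 of the 45 (28.9%) were above 1 in every one and 0 were below 1 in every one. Of the 6116 genes measured in all 5, 12.1% were above 1 in every one and 11.6% below. The 13 were Clspn, Pola1, Timeless, Dscc1, Wdhd1, Tipin, Lig1, Pold2, Gmnn, Rfc2, Gins4, Rpa1 and Pold1, and whole intervals were above 1 in all 5 for Timeless and Tipin and in 0 of 5 for Pold1. Timeless had 82.2 CPM in KI and 59.8 in WT in DN4 cluster 4, 75.4 and 57.4 in DN4 cluster 3, 73.2 and 53.5 in DN3 cluster 4, 76.9 and 41.2 in DN3 cluster 3, and 60.9 and 47.2 in DN3 cluster 6. The log2 ratios were 0.46, 0.39, 0.45, 0.90 and 0.37. Pola1 had log2 ratios of 0.56, 0.67, 0.34, 0.38 and 0.64 in the same order.

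For Clspn the ratio differed between the clusters. It had 116 CPM in KI and 106 in WT in DN4 cluster 4, and 88.7 and 45.2 in DN4 cluster 3, at log2 ratios of 0.13 (-0.02 to 0.27) and 0.97 (0.76 to 1.19). In DN3 it was at 0.54, 0.67 and 0.69 in clusters 4, 3 and 6. In clusters 0 and 1 it was at 2.55 CPM in KI and 2.65 in WT. In DN4 cluster 4 the cells called G2M made up 58.5% in KI and 37.5% in WT. Within S cells of that cluster Clspn was at 152.6 CPM in KI and 126.5 in WT, and within G2M cells at 92.3 and 75.6. The part of the phases in the difference between clusters was not tested. Dscc1 and Mcm10 were likewise highest relative to WT in DN4 cluster 3, with 31.0 and 14.8 CPM and 33.5 and 19.3 CPM in KI and WT, and log2 ratios of 1.06 (0.69 to 1.46) and 0.80.

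Cdc6 and Pcna were lower in KI within cluster 4 of DN4. Cdc6 was at 69.8 CPM in KI and 100.5 in WT in DN4 cluster 4, with a log2 ratio of -0.53 (-0.69 to -0.36), and at 71.0 and 84.9 in DN3 cluster 4, with -0.26 (-0.45 to -0.07). In cluster 3 it was at 112 and 109 CPM in KI and WT DN4, and at 82.5 and 79.6 in KI and WT DN3. Pcna was at 249 CPM in KI and 350 in WT in DN4 cluster 4, at -0.49 (-0.58 to -0.40), and at 203 and 244 in DN4 cluster 3, at -0.26 (-0.36 to -0.16). In DN3 cluster 4 it was at 260 CPM in KI and 256 in WT. Cdt1 was at 145 CPM in KI and 165 in WT in DN4 cluster 4, and at 134 and 156 in DN3 cluster 4. In cluster 4 of DN4 the share of G2M cells was 58.5% in KI and 37.5% in WT, and 18 of 21 mitotic genes were called higher in KI. With the shares of S and G2M cells held equal, 4 of 45 genes were higher and 1 lower, with a median of 0.07, and 6.79% of all genes were higher. Cdc6 was then at -0.21 and Orc1 at -0.26, no longer called, and Pcna, the 1 lower gene, at -0.36. Within S cells of that cluster Cdc6 was at 121.5 CPM in KI and 137.4 in WT, and within G2M cells at 36.5 and 44.6. Pcna was at 321.5 and 406.4 CPM in S and at 202.9 and 265.3 in G2M. In cluster 4 of DN3 with equal shares, Cdc6 was at -0.16 and Pcna at 0.08.

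**Figure D4:**
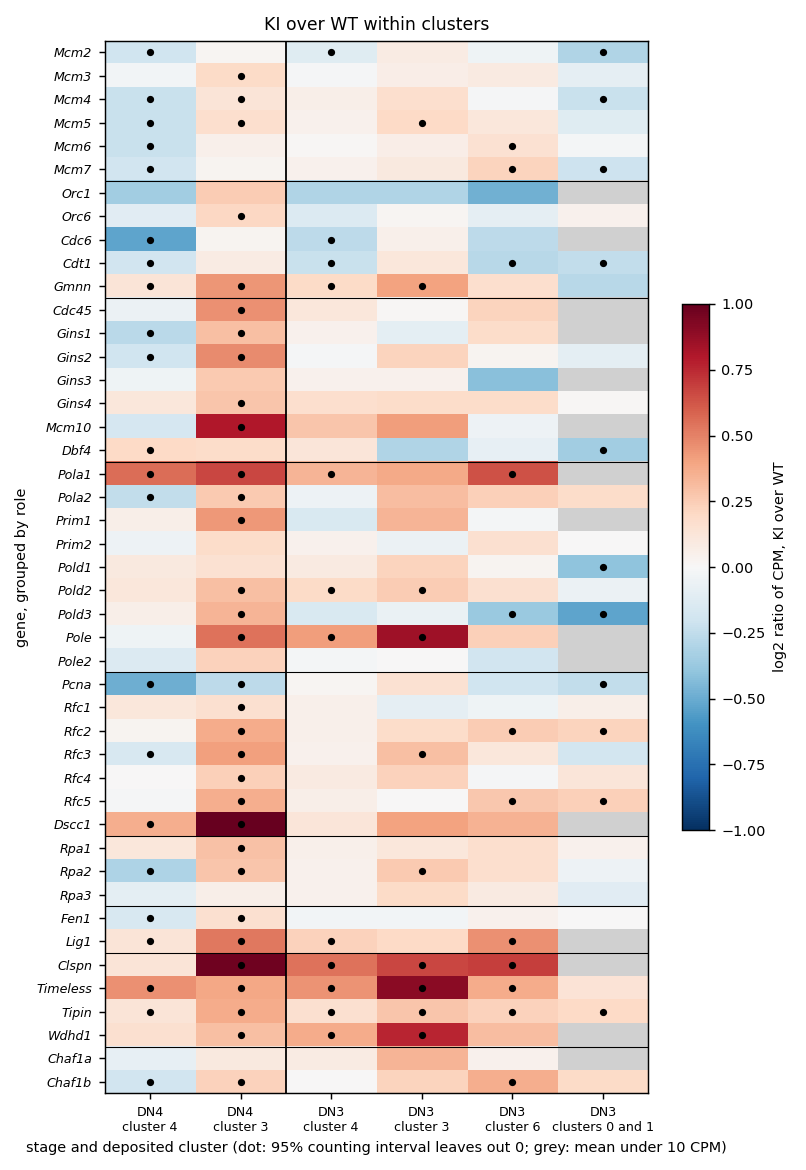
Log2 ratio of CPM in KI over WT for the 45 genes within each cluster of DN4 (left) and DN3 (right), with dots where the 95% Poisson interval leaves out 0 and grey where the mean was under 10 CPM. Clspn, Timeless and Pola1 are high in most cycling clusters, and Cdc6 and Pcna are lowest in DN4 cluster 4.

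Giving the clusters equal shares in both genotypes lowered the count in DN4 to 6 of 45 higher (background 3.93%), with 1 lower and a median of 0.12. In DN3 it lowered the count to 5 of 44 (background 4.41%), with 0 lower and a median of 0.07. On that scale Clspn was at 0.48 in DN4 and 0.55 in DN3, Pola1 at 0.61 and 0.37, and Timeless at 0.49 and 0.44, and these 3 stayed called in both stages. Tipin, at 0.25 and 0.20, and Gmnn, at 0.26 and 0.18, were no longer called in either stage. Wdhd1, at 0.22 and 0.33, was no longer called in DN4, nor were Pole at 0.26 and Rfc3 at 0.18. In DN3 the calls of Cdc45 at 0.11, Mcm10 at 0.25, Dscc1 at 0.19, Lig1 at 0.25 and Chaf1a at 0.12 were lost. Leaving out clusters 2, 5 and 7 gave 4 of 45 higher in DN4 (background 3.37%) and 1 lower. Clspn was then at 0.33, Timeless at 0.42, Tipin at 0.20 and Wdhd1 at 0.28. The calls lost in DN4 by leaving these clusters out were those of Gmnn, Mcm10, Pole, Rfc3, Lig1, Tipin and Wdhd1. With equal cluster shares in place of this, Cdc6 was at -0.17 in DN4 and -0.19 in DN3. Cdt1 was then at -0.06 and -0.18, and Pcna at -0.39 and -0.04, in the same order.

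DN4 was then compared with DN3 within each genotype. In KI, 35 of 45 genes were called higher in DN4 (background 14.0%) and 0 lower (background 27.3%), with a median of 0.57 (all genes -0.08). In WT, 33 were higher (background 16.8%) and 1 lower (background 22.6%), with a median of 0.54 (all genes -0.04). The 2 comparisons share no library, but each uses libraries that the comparisons of KI with WT use too. Cdc6 was highest in KI, at 1.14, with Mcm10 at 1.01 and Clspn at 0.98. In WT, Clspn was at 1.32, Cdc6 at 1.17, Mcm10 at 1.10 and Pole at 1.05. Orc1 in KI, at 8.31 CPM in DN3, and Mcm10 in WT, at 8.56 CPM in DN3, were measured only through DN4. Their calls, which the counts include, follow from the filter and are no support for a difference. Of the further replication genes 11 of 31 were higher in each genotype, and of the mitotic genes 20 of 20.

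Prim2 was lower in DN4 in both genotypes. It had 60.3 CPM in KI DN4 and 74.3 in KI DN3, and 55.7 in WT DN4 and 70.8 in WT DN3. The log2 ratio was -0.30 (-0.40 to -0.21) in KI and -0.35 (-0.46 to -0.23) in WT. It also had the lowest ratios of the measured genes in clusters 4 and 3 over clusters 0 and 1 of both DN3 libraries. Pcna was at 0.47 in KI and 0.92 in WT.

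Within clusters 4 and 3 fewer genes differed between the stages. In cluster 4, 0 of 45 genes were called higher in KI DN4 than in KI DN3 (background 7.06%) and 1 lower, Rpa2 at -0.45 (background 16.1%), with a median of -0.01. In WT, 5 were higher (background 6.62%) and 1 lower (background 13.3%), with a median of 0.10. The 5 were Clspn, Pcna, Mcm10, Gins1 and Pole, and the 1 was Dscc1 at -0.50. In cluster 3, 8 were higher in KI (background 8.98%), Clspn among them with 88.7 CPM in DN4 and 56.6 in DN3, with a median of 0.13. In WT, 7 were higher (background 14.2%) and 1, Dscc1, lower (background 11.6%), with a median of -0.02. Clusters 3 and 4 held fewer cells of DN3, and clusters 2 and 5, where the genes took 0.154% to 0.190% of UMIs, occurred in DN4.

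**Figure D5:**
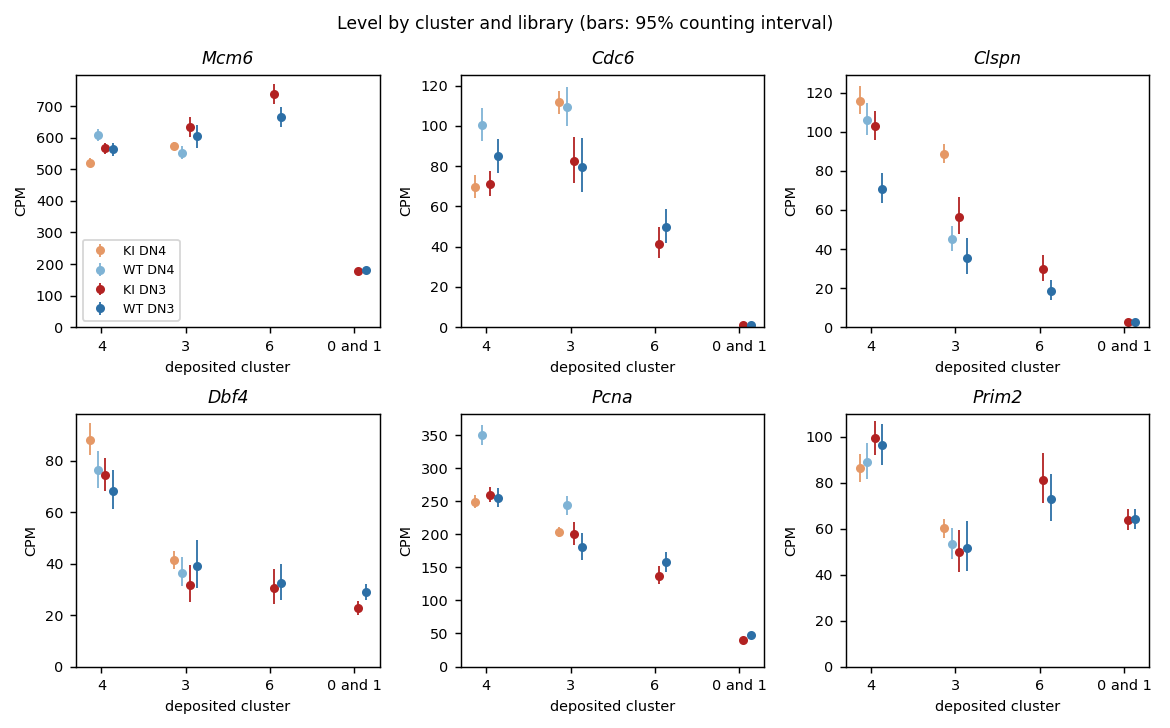
CPM of Mcm6, Cdc6, Clspn, Dbf4, Pcna and Prim2 in clusters 4 and 3 of the DN4 libraries and in clusters 4, 3, 6 and 0 and 1 of the DN3 libraries, with exact 95% Poisson intervals. Mcm6 is highest in cluster 6 of DN3, Clspn and Dbf4 are highest in cluster 4 among the clusters plotted, and Prim2 is lowest in cluster 3 among the DN3 clusters plotted.

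Receptor libraries gave a readout other than expression. Whether the deposited clusters used it is not given in the sources used here, and the genes were chosen with earlier results of these data known. In cluster 6, 68.3% of KI DN3 cells and 71.2% of WT DN3 cells had a productive TRB chain. In KI, 1 of 45 genes was called higher in cells with the chain (background 13.7%) and 10 lower (background 21.9%), with a median of -0.22 and 9 whole intervals below 1. In WT, 10 were higher (background 13.6%) and 1 lower (background 20.8%), with a median of 0.08 and 1 whole interval above 1, so the medians of the libraries differed in sign. Mcm5 was at 309 CPM with and 392 without the chain in KI, at -0.34 (-0.53 to -0.15), and at 312 and 307 in WT. Orc1 was at 8.08 CPM with and 12.0 without the chain in KI, and at 15.0 and 7.97 in WT. Orc1 was measured only through the higher side, so its calls follow from the filter and are no support for a difference. Cells with the chain were less often called S, at 72.2% with and 84.8% without in KI and 65.9% with and 75.7% without in WT, and the part of this in the ratios was not tested.

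In clusters 0 and 1, 4.78% of KI DN3 and 6.87% of WT DN3 cells had the chain. Of 33 genes measured in KI, 8 were higher in cells with it (background 12.7%) and 5 lower (background 20.6%), and of 31 in WT 9 were higher (background 10.7%) and 3 lower (background 18.2%). Mcm6 was higher with the chain in both libraries. It had 221 CPM with and 175 without in KI, at 0.34 (0.09 to 0.58), and 212 and 177 in WT, at 0.26 (0.04 to 0.46). Cells called S made up 6.78% with and 2.77% without the chain in KI, and 3.87% with and 2.86% without in WT, and the part of this in the ratios was not tested. Prim1, the catalytic subunit of primase, was at 1.46 (0.53 to 2.28) in KI and 1.0 (0.03 to 1.86) in WT. It had 20.6 CPM (14 UMIs) with and 7.51 without the chain in KI, and 13.5 (13 UMIs) and 6.75 in WT. Prim1 was thus measured only through the cells with the chain, as were Gins1 and Chaf1a, also called higher in KI. Such calls follow from the filter and are no support for a difference.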

How the data were processed

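The authors deposited raw UMI counts, 15653 genes by 10237 cells, with a table of each cell's library, cluster and phase, and contig tables with UMI and read counts. The submitters' processing notes name Cell Ranger (3.1.0, 6.0.1) with build mm10; which release made which file, the filters, and the cluster and phase methods are not given in the sources used here. Cells held 717 to 46885 UMIs and none was removed. Scrublet (scanpy 1.11.5) called 73 doublets (0.713%), with DN3 rates of 0.152% in KI and 0.139% in WT, where the caller may not have worked; they were left in. UMIs were summed per library, cluster or phase with at least 50 cells and divided by their total (CPM). Ratios carry exact conditional Poisson intervals (scipy 1.17.1). A gene was called at a log2 ratio of 0.32 or more in size among genes with a mean of at least 10 CPM; the procedure was tested on simulated data. With 1 library per group no p-value was computed, and cells were not taken as replicates. The members and lists were chosen with earlier results of these data known, and values per library are given for the highest gene of each role, the 8 highest and 8 lowest ratios of KI over WT, and genes whose highest cluster differed from that of their role. Alternatives were other scaling (edgeR 4.0.16), thinning to 3000 UMIs, another fold, per-cell means, equal cluster or phase shares and another promoter window.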

Additional observations from a re-analysis of the deposited data

Results flagged for a closer look

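Pcna had opposite directions in the stages. Its log2 ratio of KI over WT was -0.29 in DN4 and 0.15 in DN3, and the difference between these ratios was not tested. Its processed copy Pcna-ps2 is listed as a gene of its own, and reads of the pair could be split between them. The copy was at 1.12 CPM (34 UMIs) in KI DN4, 0.792 (13) in WT DN4, 1.80 (46) in KI DN3 and 0.486 (11) in WT DN3. With the copy added to Pcna, the ratio was -0.29 (-0.35 to -0.23) in DN4 and 0.17 (0.09 to 0.24) in DN3.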

How the results depend on the processing

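No paired analysis was possible because each group has 1 expression library. Of 74 alternative counts, 53 were within 1.5 times the reported count. The 53 include counts by TRB chain with at least 2 UMIs on the contig, which used the same cells and so could not differ. They also include counts without the 73 doublets (0.713% of cells), which took out few cells. The count of genes higher in KI DN4 than in WT DN4, reported as 11, was 25 with trimmed-mean scaling, 3 at 1.5-fold, 26 with per-cell CPM, 27 after thinning, 4 without clusters 2, 5 and 7, and 6 with equal cluster shares. The backgrounds were 10.7%, 0.456%, 6.26%, 9.12%, 3.37% and 3.93% in that order. In DN3, reported as 12, the count was 4 at 1.5-fold (background 0.861%) and 5 with equal shares (background 4.41%). For DN4 over DN3 it was 21 at 1.5-fold in both genotypes, with backgrounds of 6.89% in KI and 8.36% in WT. With equal shares, which use clusters 3 and 4 alone, it was 1 in KI (background 6.53%) and 5 in WT (background 6.26%). Within clusters, the counts of genes higher in KI at 1.5-fold were 0 in DN4 cluster 4, 4 in DN4 cluster 3, 0 in DN3 cluster 4, 4 in DN3 cluster 3 and 2 in DN3 cluster 6. Their backgrounds were 1.65%, 1.43%, 1.34%, 4.2% and 3.33%. DN4 cluster 3 had 25 with trimmed-mean scaling (background 11.4%). DN3 cluster 4 had 3 with per-cell CPM (background 6.27%), and DN3 cluster 6 had 3 with equal phase shares (background 12.5%). The longer promoter window gave 22 genes with E2F letters. Of 1080 values of single genes, 524 stayed within the counting interval of the reported ratio and 544 moved outside it. Another 12 that were called changed sign. Of the values not called, 58 changed sign, 33 of the 58 with equal cluster shares. For KI over WT, thinning lost the calls of Pola1 and Wdhd1 in DN3 and of Wdhd1 in DN4. Per-cell CPM lost those of Wdhd1 and Chaf1a in DN3. The called values that changed sign with equal shares in DN4 over DN3 in KI were Mcm4 at 0.00, Mcm5 at -0.08, Pola2 at -0.08, Pcna at -0.02, Rfc3 at -0.02, Dscc1 at -0.07 and Fen1 at -0.05. In WT they were Mcm3 at -0.01, Rfc1 at -0.02, Rfc5 at -0.11 and Fen1 at -0.03, and Prim2 at 0.05 without clusters 2, 5 and 7. The cause of these changes was not tested. KI over WT within cluster 7, with 22 WT DN4 cells, and the protein motif were not run. Counting error is the only error known here.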
